A study of Danio rerio with 18 samples.

Results

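The p53 and cell cycle inhibitor genes described here are 7 symbols, taken for their known roles and with earlier results of these data at hand: cdkn1a, cdkn1bb, cdkn1ca, cdkn2c, mdm2, ccng1 and rb1. Matched ignoring case, they gave 8 of the 32520 gene identifiers in the count tables. The tables' symbols do not keep the paralogue letter of cdkn1b, so both CDKN1B rows, ENSDARG00000029018 and ENSDARG00000054271, were taken, and which of them is cdkn1bb is not settled here. The other rows are cdkn1a (ENSDARG00000076554), cdkn1ca (ENSDARG00000010878), CDKN2C (ENSDARG00000057610), mdm2 (ENSDARG00000033443), CCNG1 (ENSDARG00000076667) and RB1 (ENSDARG00000006782). All 8 rows passed the filter on low counts.

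Messenger RNA of adult zebrafish ventricles was counted in 5 groups of 3 libraries. The 7 dpci ventricles came from the driver line cmcl2:Gal4-ERT2 alone (strain labels write cmcl2, sample titles cmlc2), with no drug, 7 days after a cryoinjury, a freezing wound from which the zebrafish heart regenerates. GFP-HRAS rapamycin and GFP-HRAS DMSO were uninjured ventricles of cmcl2:Gal4-ERT2;UAS:GFP-HRAS fish, which carry the RAS oncogene protein fused to a green reporter, and RFP rapamycin and RFP DMSO were the same from cmcl2:Gal4-ERT2;UAS:RFP fish, which carry a red reporter. These 4 groups had 4 overnight pulses of 4-hydroxytamoxifen (4-OHT) at 2.5 uM during 16 days, together with rapamycin, an inhibitor of the TOR kinase, at 0.5 uM or with DMSO at 0.05%. Every group thus carried the driver, whose promoter belongs to a cardiac myosin light chain and is active in cardiomyocytes, while the libraries hold the RNA of the whole ventricle. The labels give no HRAS allele, no age beyond adult and no number of animals per library, so each p-value measures only the spread between these libraries, which may be technical. The uninjured driver-line ventricles that the labels list were not analysed here. Against the other groups, the injury in 7 dpci therefore cannot be told apart from the strain, the 4-OHT, the vehicle and the separate count table.

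The transcription factor p53 is activated by DNA damage and by oncogene signals and switches on cdkn1a, which encodes the cyclin-dependent kinase inhibitor p21, as well as mdm2, whose product targets p53 for degradation, and ccng1, which encodes cyclin G1. The Cip/Kip inhibitors p21, p27 (cdkn1b) and p57 (cdkn1c) and the INK4 inhibitors, such as p18 (cdkn2c), restrain the kinases that phosphorylate the retinoblastoma protein Rb (rb1). Unphosphorylated Rb holds back the E2F factors that drive S phase genes, and adult zebrafish cardiomyocytes, which seldom divide in the resting heart, re-enter the cell cycle after injury.

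Library totals were 15861618 to 20003711 counts. Levels are CPM, counts scaled to library size with trimmed-mean (TMM) factors, and levels of different genes are not compared, since transcript lengths were not used. On the first principal component of the 1000 most variable genes (64.2% of their variance), GFP-HRAS rapamycin replicate 3 lay at 11.6, apart from the other two libraries of its group at -44.8 and -33. The 7 dpci libraries spanned -28.5 to -23.4, those of GFP-HRAS DMSO -70.2 to -50.7, and the RFP libraries 48.2 to 60.4. Fold changes of the 8 rows that involve GFP-HRAS rapamycin are therefore given with and without that library. Summed cardiomyocyte markers were 53100 to 53900 CPM in 7 dpci, 49700 to 54600 in GFP-HRAS rapamycin, 27200 to 31700 in GFP-HRAS DMSO, 45400 to 66200 in RFP rapamycin and 45500 to 52100 in RFP DMSO, so the labelled tissue carried its markers in every group. Summed macrophage and leukocyte markers were 1250 to 1300 CPM in 7 dpci, 170 to 490 in GFP-HRAS rapamycin, 3450 to 5010 in GFP-HRAS DMSO, 136 to 182 in RFP rapamycin and 112 to 333 in RFP DMSO. Of their 10 rows, 1 MPEG1 row was at 0 in every library, and ptprc, csf1ra, cd74a and LCP1 were present in every group. In such bulk libraries, fewer cells of a type and less RNA per cell cannot be told apart. Summed endothelial markers were 1610 to 1760 CPM in 7 dpci, 996 to 1480 in GFP-HRAS rapamycin, 547 to 650 in GFP-HRAS DMSO, 1680 to 1950 in RFP rapamycin and 2010 to 2230 in RFP DMSO, with 6 of 7 lower in GFP-HRAS DMSO than in RFP DMSO. Epicardial markers were 948 to 1010 CPM in 7 dpci, 649 to 738 in GFP-HRAS rapamycin, 358 to 429 in GFP-HRAS DMSO, 1250 to 1400 in RFP rapamycin and 1230 to 1470 in RFP DMSO, with 1 of 5 higher and 1 lower in that comparison. podxl made up most of these sums, with 24441 counts over GFP-HRAS DMSO against 65987 over RFP DMSO. TBX18 had 2299 against 1065, wt1b 999 against 278, ALDH1A2 336 against 76 and TCF21 93 against 94. The part of these shifts in the results below, the lower CDKN1B rows included, was not tested.

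In GFP-HRAS DMSO ventricles the inhibitor genes moved in opposite directions. cdkn1a, CDKN2C and RB1 were higher than in RFP DMSO, and both CDKN1B rows were lower. With edgeR's quasi-likelihood test and Benjamini-Hochberg adjustment over all 16044 genes, 3 of the 8 rows were called higher and 2 lower at an adjusted p under 0.05, while 47.5% of all tested genes were called (24.9% higher, 22.6% lower). The 8 rows had a median log2 fold change of 0.24, beside 0.02 for all genes. Libraries of the groups did not overlap for 6 of the 8 rows, and 62.6% of all genes had such a separation, so rows with this separation were about as frequent as among genes at large.

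**Figure D1:**
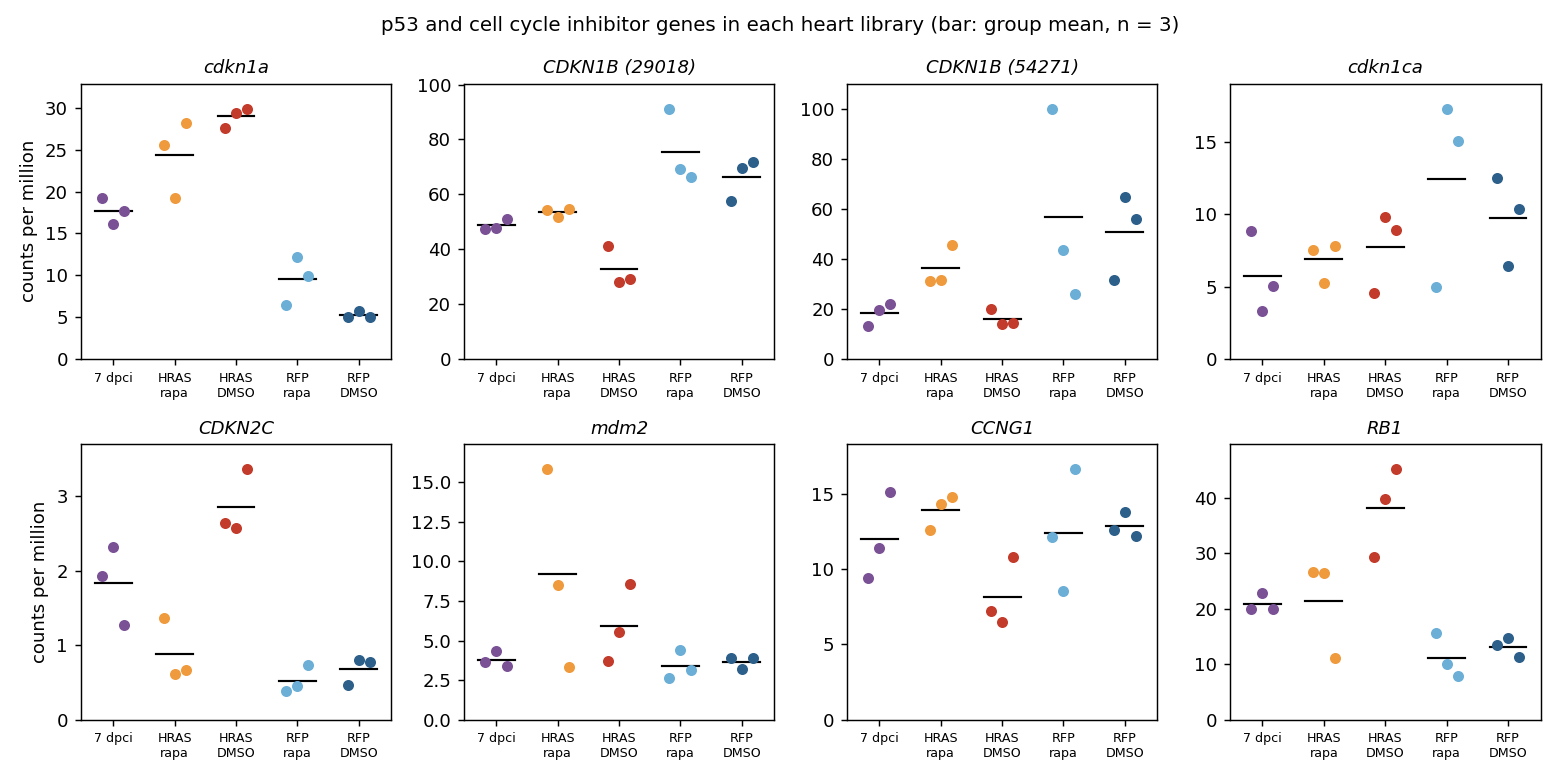
Levels of the 8 rows in each library, as TMM-scaled CPM on the vertical axis of each panel, with 3 points per group and a bar at the group mean. The 5 groups run from 7 dpci to RFP DMSO; cdkn1a sits at 27.6 to 29.9 in GFP-HRAS DMSO against 5.01 to 5.78 in RFP DMSO, while the mean of each CDKN1B row is lowest in GFP-HRAS DMSO.

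cdkn1a, whose product p21 blocks cyclin-dependent kinases and which is the best known arrest gene switched on by p53, had 19.2, 16.1 and 17.6 CPM in the 7 dpci libraries, 25.6, 19.2 and 28.2 in GFP-HRAS rapamycin, 27.6, 29.4 and 29.9 in GFP-HRAS DMSO, 6.50, 12.2 and 9.95 in RFP rapamycin and 5.01, 5.78 and 5.03 in RFP DMSO. Every GFP-HRAS library and every 7 dpci library lay above all 6 RFP libraries, and GFP-HRAS DMSO and GFP-HRAS rapamycin overlapped, as did GFP-HRAS rapamycin and 7 dpci. Between GFP-HRAS DMSO and RFP DMSO the log2 fold change was 2.51 ± 0.243 (SE, adjusted p = 0.000131), a 5.7-fold rise. The call held in all 13 alternative settings, with adjusted p-values up to 0.00156.

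The lines also differed in cdkn1a under rapamycin. GFP-HRAS rapamycin exceeded RFP rapamycin by 1.33 ± 0.233 in log2 (SE, adjusted p = 0.00575), and by 1.2 (adjusted p = 0.00611) without GFP-HRAS rapamycin replicate 3. Within the GFP-HRAS line, rapamycin against DMSO gave a log2 fold change of -0.30 ± 0.227 (adjusted p = 0.402), which scaling by library totals turned into a called fall of -0.76 (adjusted p = 0.044). Without GFP-HRAS rapamycin replicate 3 it was -0.42 (adjusted p = 0.337). Within the RFP line the 3 rapamycin libraries all lay above the 3 DMSO libraries, by 0.88 ± 0.237 in log2, with an unadjusted p of 0.00324 and an adjusted p of 0.931. The test of the difference between the lines' rapamycin effects gave -1.18 ± 0.328 (adjusted p = 0.163). DESeq2 called it (-1.2, adjusted p = 0.031), and no other alternative did; without GFP-HRAS rapamycin replicate 3 it was -1.3 (adjusted p = 0.199).

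In 7 dpci ventricles cdkn1a was 3.36-fold the RFP DMSO level (log2 1.75 ± 0.219, adjusted p = 0.000229), and this call held in all 12 alternatives. It was below GFP-HRAS DMSO by -0.76 ± 0.208 in log2 (adjusted p = 0.0169), with no overlap of libraries. With 7 dpci replicate 2 or 3 left out, that smaller difference missed the threshold (adjusted p = 0.0674 and 0.0555), as it did with GFP-HRAS DMSO replicate 2 or 3 left out (0.0605 and 0.0505). Against GFP-HRAS rapamycin it was -0.46 ± 0.208 (adjusted p = 0.14), and -0.33 (adjusted p = 0.311) without GFP-HRAS rapamycin replicate 3.

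The CDKN1B rows, for the inhibitor p27 that holds resting cells out of the cycle, ran the other way. Row ENSDARG00000029018 had 47.5, 47.7 and 51.0 CPM in 7 dpci, 54.2, 51.7 and 54.5 in GFP-HRAS rapamycin, 41.3, 28.0 and 29.3 in GFP-HRAS DMSO, 91.2, 69.3 and 66.2 in RFP rapamycin and 57.6, 69.5 and 71.8 in RFP DMSO. The groups stood in separate, non-overlapping steps, GFP-HRAS DMSO lowest, then 7 dpci, GFP-HRAS rapamycin and the 2 RFP groups, which overlapped each other. It fell by 0.96 in log2 in GFP-HRAS DMSO against RFP DMSO (SE 0.189, adjusted p = 0.00227). The library-total scaling put that fall at -0.51 (adjusted p = 0.0519).

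Row ENSDARG00000054271 had 13.2, 19.4 and 22.0 CPM in 7 dpci, 31.3, 31.7 and 45.7 in GFP-HRAS rapamycin, 19.9, 14.0 and 14.4 in GFP-HRAS DMSO, 100, 43.7 and 26.1 in RFP rapamycin and 31.7, 64.7 and 55.9 in RFP DMSO. The 7 dpci and GFP-HRAS DMSO libraries overlapped each other at the bottom and lay below all other libraries, whose levels spread widely, most of all in RFP rapamycin. The fall in GFP-HRAS DMSO against RFP DMSO was -1.61 ± 0.431 (adjusted p = 0.0107) and held in all 13 alternatives. In 7 dpci against RFP DMSO it was -1.48 ± 0.413 (adjusted p = 0.014), and this call was lost without 7 dpci replicate 1 (adjusted p = 0.0608) or RFP DMSO replicate 2 (0.0589).

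The ratio of cdkn1a counts to the counts of both CDKN1B rows needs no scaling between libraries. It was 0.316, 0.24 and 0.242 in 7 dpci, 0.299, 0.23 and 0.281 in GFP-HRAS rapamycin, 0.452, 0.701 and 0.683 in GFP-HRAS DMSO, 0.034, 0.108 and 0.108 in RFP rapamycin and 0.0561, 0.0431 and 0.0394 in RFP DMSO. GFP-HRAS DMSO stood above every other library, both RFP groups stood below, and 7 dpci and GFP-HRAS rapamycin lay between and overlapped each other. The balance of the transcripts for p21 and p27 thus differed between GFP-HRAS DMSO and RFP DMSO whichever way the libraries are scaled.

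**Figure D2:**
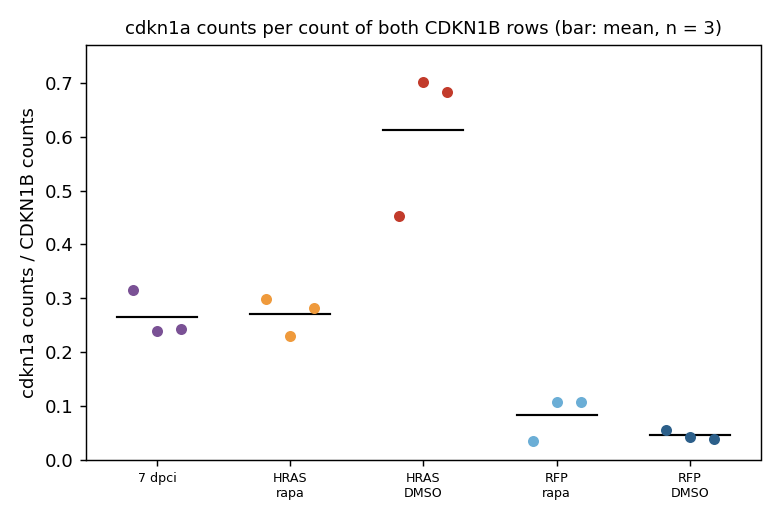
Counts of cdkn1a divided by the summed counts of both CDKN1B rows in each library, on a linear vertical axis from 0, with a bar at the mean of the 3 libraries of each group. The GFP-HRAS DMSO libraries reach 0.452 to 0.701, and no RFP library passes 0.108.

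cdkn1ca, which encodes a zebrafish p57, had 8.84, 3.29 and 5.02 CPM in 7 dpci, 7.56, 5.28 and 7.84 in GFP-HRAS rapamycin, 4.57, 9.79 and 8.94 in GFP-HRAS DMSO, 4.95, 17.3 and 15.1 in RFP rapamycin and 12.5, 6.40 and 10.4 in RFP DMSO. Every group overlapped its neighbours in the order of means, and none of the 8 comparisons called it. Its log2 fold change in GFP-HRAS DMSO against RFP DMSO was -0.27 ± 0.442 (adjusted p = 0.638) and 0.22 with library totals.

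Its paralogue cdkn1cb was sparse, with 22 counts over the 7 dpci libraries, 60 over GFP-HRAS rapamycin, 69 over GFP-HRAS DMSO, 23 over RFP rapamycin and 1 over RFP DMSO. The scaled ratio of GFP-HRAS DMSO to RFP DMSO was 46.5, with an exact 95% interval of 8.07 to 1863 for counting error only, and the gene was called (adjusted p = 0.00172). The same ratio for 7 dpci was 18.9 (3.06 to 779.9, adjusted p = 0.0174), and its call was lost without 7 dpci replicate 3 (adjusted p = 0.0697), which held 13 of the 22 counts, or without RFP DMSO replicate 1 (0.0501) or replicate 2 (0.0665). RFP rapamycin had 15, 7 and 1 counts, a ratio of 24.2 to RFP DMSO (3.92 to 995.5), which missed the threshold (adjusted p = 0.864).

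CDKN2C, for the INK4 inhibitor p18, which binds CDK4 and CDK6, was counted at a low level. Its levels were 1.93, 2.32 and 1.27 CPM in 7 dpci, 1.36, 0.609 and 0.674 in GFP-HRAS rapamycin, 2.64, 2.58 and 3.36 in GFP-HRAS DMSO, 0.386, 0.451 and 0.732 in RFP rapamycin and 0.468, 0.80 and 0.775 in RFP DMSO, from 6 counts in the lowest library to 86 in the highest. All GFP-HRAS DMSO libraries were above all others, and the GFP-HRAS rapamycin libraries overlapped both RFP DMSO and 7 dpci. CDKN2C rose 4.31-fold in GFP-HRAS DMSO against RFP DMSO (log2 2.11 ± 0.419, adjusted p = 0.00238), and this held in all 13 alternatives.

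In the GFP-HRAS line CDKN2C was lower with rapamycin, by -1.73 ± 0.409 in log2 against DMSO (adjusted p = 0.023), with no overlap of libraries. The size stayed between -2.19 and -1.52 in the 13 alternatives, but the call was lost in 5 of them, with adjusted p-values of 0.065 and 0.0712 without GFP-HRAS DMSO replicates 2 and 3, 0.0783 and 0.0742 without GFP-HRAS rapamycin replicates 2 and 3 (-1.56 without replicate 3), and 0.0593 with only the 2 groups in the fit. In 7 dpci it rose by 1.43 ± 0.403 in log2 against RFP DMSO (adjusted p = 0.0147). That call was lost without 7 dpci replicate 2 (adjusted p = 0.0618) or RFP DMSO replicate 1 (0.0509).

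The other INK4 rows were sparse. cdkn2a/b, the single zebrafish counterpart of the mammalian genes for p16 and p15, had 37 counts over GFP-HRAS rapamycin against 2 over RFP rapamycin, a ratio of 17 with a counting interval of 4.40 to 146 (adjusted p = 0.0229). Over GFP-HRAS DMSO it had 63 counts against 3 over RFP DMSO, a ratio of 14.2 (4.63 to 70.5, adjusted p = 0.00571), and over 7 dpci 23 against the same 3, a ratio of 6.59 (1.99 to 34.3, adjusted p = 0.0363). With at most 3 counts over RFP DMSO, cdkn2a/b and cdkn1cb, like CHEK1, chek2 and CDK1 below, were near the floor in that group. They passed the filter on low counts through libraries of other groups, where they are higher, so their calls are no independent support. In GFP-HRAS rapamycin, 26 of the 37 counts came from replicate 1, without which the adjusted p was 0.1, and the call was also lost without GFP-HRAS rapamycin replicate 2 (0.0532), RFP rapamycin replicate 1 (0.0564) or replicate 2 (0.087). The 7 dpci call was lost with each library of the comparison left out except 7 dpci replicate 2, with adjusted p-values of 0.0739 to 0.101, and with no filter on low counts (0.0504), among other settings. CDKN2D had 0 to 6 counts a library and was not tested.

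CDKN3, a phosphatase that acts on CDK2, rose by 1.68 ± 0.564 in log2 in GFP-HRAS DMSO against RFP DMSO (adjusted p = 0.0291). Dropping GFP-HRAS DMSO replicate 1 (0.0624) or 3 (0.0671), or RFP DMSO replicate 1 (0.0905) or 2 (0.106), ended that call. CDKN2AIP, whose human product binds p14ARF, was at 0.22 ± 0.201 (adjusted p = 0.387).

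RB1, the pocket protein that binds E2F factors, had 19.9, 22.9 and 19.9 CPM in 7 dpci, 26.7, 26.4 and 11.2 in GFP-HRAS rapamycin, 29.4, 39.7 and 45.1 in GFP-HRAS DMSO, 15.7, 10.1 and 7.91 in RFP rapamycin and 13.5, 14.8 and 11.3 in RFP DMSO. GFP-HRAS DMSO lay above all other libraries, 7 dpci lay above both RFP groups, and the low value in GFP-HRAS rapamycin belonged to replicate 3, the library that stood apart. In GFP-HRAS DMSO against RFP DMSO it rose 3-fold (log2 1.58 ± 0.341, adjusted p = 0.00356), in all 13 alternatives. In GFP-HRAS rapamycin against RFP rapamycin it stood at 0.92 ± 0.338 (adjusted p = 0.0792) with replicate 3 and at 1.22 (adjusted p = 0.00907) without it.

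The other pocket proteins were not called. RBL1 (p107) and RBL2 (p130) had log2 fold changes of -0.07 ± 0.256 (adjusted p = 0.843) and 0.08 ± 0.28 (adjusted p = 0.824) in GFP-HRAS DMSO against RFP DMSO, and of -0.23 and 0.44 in 7 dpci against RFP DMSO. A difference between RB1 and its relatives was not tested.

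mdm2, the p53 antagonist that p53 itself induces, varied most within the GFP-HRAS line. It had 3.62, 4.36 and 3.37 CPM in 7 dpci, 15.8, 8.53 and 3.31 in GFP-HRAS rapamycin, 3.72, 5.51 and 8.55 in GFP-HRAS DMSO, 2.64, 4.40 and 3.15 in RFP rapamycin and 3.88, 3.20 and 3.93 in RFP DMSO. The highest 4 values were all from GFP-HRAS libraries, but each GFP-HRAS group also had a library at the RFP level, and all neighbouring groups overlapped. The log2 fold changes were 0.75 ± 0.479 in GFP-HRAS DMSO against RFP DMSO (adjusted p = 0.217) and 1.42 ± 0.486 in GFP-HRAS rapamycin against RFP rapamycin (adjusted p = 0.0625). The rapamycin comparison of the lines called mdm2 without GFP-HRAS rapamycin replicate 3 (1.82, adjusted p = 0.00678), with DESeq2 (adjusted p = 0.0233) and with all 15 libraries in the fit (0.0362). Without GFP-HRAS rapamycin replicate 1, the library at 15.8 CPM, mdm2 was at 0.78 (adjusted p = 0.294). With only the 2 groups in the fit it was at 1.45 (adjusted p = 0.137). In 7 dpci mdm2 was at 0.05 ± 0.448 against RFP DMSO (adjusted p = 0.939).

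CCNG1, whose product recruits a phosphatase to Mdm2, had 9.42, 11.4 and 15.1 CPM in 7 dpci, 12.6, 14.3 and 14.8 in GFP-HRAS rapamycin, 7.21, 6.46 and 10.8 in GFP-HRAS DMSO, 12.1, 8.52 and 16.6 in RFP rapamycin and 12.6, 13.8 and 12.2 in RFP DMSO. It is a classical p53 target. Its lowest CPM values were in GFP-HRAS DMSO, where cdkn1a was highest. The GFP-HRAS DMSO libraries lay below the RFP DMSO libraries by -0.60 ± 0.266 in log2 (adjusted p = 0.0811), a difference that passed the threshold without GFP-HRAS DMSO replicate 3 (-0.86, adjusted p = 0.0371). The difference depends on the scaling: with library totals it was -0.13 (adjusted p = 0.684). No other comparison called CCNG1 in any setting.

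Counted against cdkn1a within each library, both genes were lower in GFP-HRAS DMSO than in RFP DMSO. For mdm2 the ratios were 0.135, 0.187 and 0.286 in GFP-HRAS DMSO and 0.773, 0.553 and 0.78 in RFP DMSO. For CCNG1 they were 0.261, 0.22 and 0.362 in GFP-HRAS DMSO and 2.52, 2.39 and 2.43 in RFP DMSO. In 7 dpci they were 0.189 to 0.271 for mdm2 and 0.491 to 0.856 for CCNG1. Under rapamycin the lines overlapped for both: mdm2 per cdkn1a was 0.617, 0.445 and 0.117 in GFP-HRAS and 0.406, 0.361 and 0.316 in RFP, and CCNG1 per cdkn1a was 0.493, 0.746 and 0.526 in GFP-HRAS and 1.86, 0.699 and 1.67 in RFP. The 3 p53 targets therefore did not keep 1 proportion between GFP-HRAS DMSO and RFP DMSO, and no scaling enters these ratios. The ratios carry the rise of cdkn1a, their denominator, and are no evidence separate from it. By itself mdm2 averaged 5.93 CPM in GFP-HRAS DMSO and 3.67 in RFP DMSO, and CCNG1 8.16 and 12.9.

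**Figure D3:**
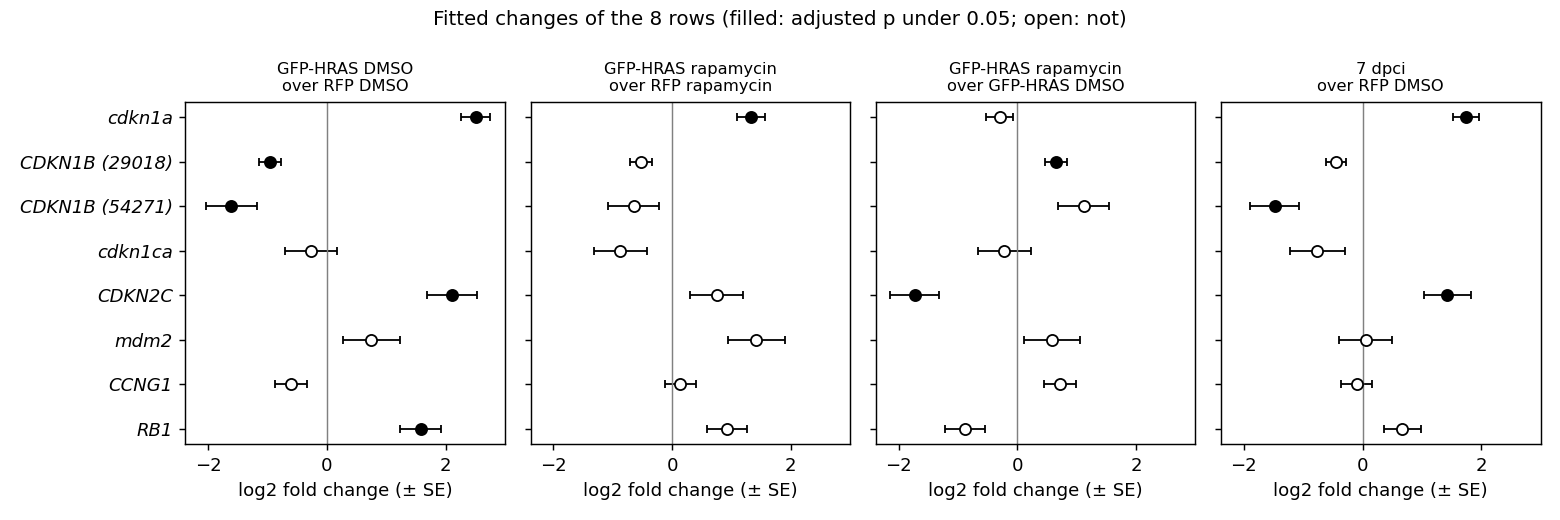
Fitted log2 fold changes of the 8 rows (horizontal axis, ± SE) in 4 comparisons, with filled points where the adjusted p was under 0.05. cdkn1a is called in GFP-HRAS over RFP with either treatment and in 7 dpci over RFP DMSO, while mdm2 and CCNG1 are called in none of the 4.

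Lists of genes around the members were counted in the same fits, beside the share of all genes called. Of 17 tested p53 regulators, 3 rose and 8 fell in GFP-HRAS DMSO against RFP DMSO, with a median log2 fold change of -0.45 beside 0.02 for all genes, of which 24.9% rose and 22.6% fell. The 3 that rose are damage kinases: ATM (0.77 ± 0.208, adjusted p = 0.0112), CHEK1, with 392 counts against 3 and a ratio of 88.1 (29.9 to 428.8), and chek2, with 55 counts against 3 and a ratio of 12.4 (4.01 to 61.7). Dropping GFP-HRAS DMSO replicate 3 (0.068) or RFP DMSO replicate 2 (0.0753) or 3 (0.0775) ended the chek2 call. The largest falls were HIPK2 (-1.88 ± 0.452, adjusted p = 0.00616), a kinase that phosphorylates p53, and an EP300 row (-1.52 ± 0.331, adjusted p = 0.00384), for an acetylase that acts on p53. MDM4, the partner of Mdm2, was lower by -0.53 ± 0.14 (adjusted p = 0.00999). The falls depend on the scaling: library totals moved the median of all genes from 0.023 to 0.484 and left 4 of the list higher and 4 lower, with MDM4 no longer called (adjusted p = 0.709).

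The p53 targets of arrest and repair split. Of 23 tested, cdkn1a and CCNG1 among them, 5 rose, 3 fell and 15 were not called, with a median of 0.19; the calls were a smaller share than the 47.5% of all genes. Besides cdkn1a, the genes that rose were PHLDA3, an inhibitor of Akt signalling, at 3.35 ± 0.513 (adjusted p = 0.000685), PLK3, a stress-response kinase, at 2.01 ± 0.371 (adjusted p = 0.00165), rps27l, a ribosomal protein paralogue, at 2.05 ± 0.291 (adjusted p = 0.000489), and sesn2, a TOR pathway inhibitor, at 0.81 ± 0.266 (adjusted p = 0.0259). PHLDA3 had 22.8 ± 1.86 CPM in GFP-HRAS DMSO and 2.34 ± 1.44 in RFP DMSO (SD, n = 3 each). For sesn2 the threshold was missed with GFP-HRAS DMSO replicate 2 (0.0572) or 3 (0.0725) or RFP DMSO replicate 1 (0.0755) or 3 (0.0832) left out.

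The 3 that fell were a GLS2 row, for a glutaminase, at -3.17 ± 0.569 (adjusted p = 0.00141), SESN1, a relative of sesn2, at -2.90 ± 0.681 (adjusted p = 0.00543), and foxo3b, a stress-response transcription factor, at -2.12 ± 0.521 (adjusted p = 0.00688). SESN1 had 167 ± 104 CPM in GFP-HRAS DMSO and 1290 ± 560 in RFP DMSO (SD, n = 3 each). sesn2 and SESN1 thus moved in opposite directions. With library totals, 8 genes of the list were higher and 3 lower.

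Of 14 apoptosis targets of p53, 5 rose and 2 fell (median 0.23), a share close to the 47.5% of all genes called. Those that rose were casp8 (1.70 ± 0.202, adjusted p = 0.000293), baxb (1.37 ± 0.286, adjusted p = 0.00307), fas (2.97 ± 1.05, adjusted p = 0.0358), APAF1 (0.53 ± 0.163, adjusted p = 0.0196) and tnfrsf1a (0.59 ± 0.158, adjusted p = 0.0109), and those that fell were CASP9 (-1.46 ± 0.482, adjusted p = 0.027) and EI24 (-0.74 ± 0.238, adjusted p = 0.0247). fas and casp8 belong to death receptor signalling, and bbc3, for the p53-induced protein Puma, stood at -1.47 ± 0.575 (adjusted p = 0.0534). bbc3 was called lower with no filter (0.0466), DESeq2 (0.0277), only the 2 groups (0.0264), all 15 libraries (0.0313) and without RFP DMSO replicate 1 (0.0229). Only casp8 and baxb were called in every setting; without RFP DMSO replicate 3 the count was 2 higher and 0 lower, and with library totals 6 higher and 0 lower. fas had 82 counts over GFP-HRAS DMSO against 7 over RFP DMSO and passed the filter on low counts through libraries of other groups. Without GFP-HRAS DMSO replicate 2, fas stood at an adjusted p of 0.167, and without RFP DMSO replicate 2 CASP9 stood at 0.122 and EI24 at 0.0696. fas and casp8 are also expressed by leukocytes, whose summed markers were 3450 to 5010 CPM in GFP-HRAS DMSO against 112 to 333 in RFP DMSO, with 7 of 8 tested markers higher; their part in these changes was not tested.

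E2F factors and their targets, downstream of Rb, were mostly higher. Of 9 tested E2F and partner genes, 6 rose and 1 fell in GFP-HRAS DMSO against RFP DMSO (median 2.41). E2F8 was at 4.63 ± 0.831 (adjusted p = 0.0014) and E2F1 at 4.35 ± 0.859 (adjusted p = 0.00231). The factor that fell, e2f6, was at -0.83 ± 0.248 (adjusted p = 0.0181), a call lost with library totals (0.244), without GFP-HRAS DMSO replicate 2 (0.0676) or 3 (0.0523) and without RFP DMSO replicate 2 (0.0564) or 3 (0.0628). Of 19 E2F target genes of S phase, 17 rose and none fell (median 3), while 24.9% of all genes rose. An RRM2 row, for a subunit of ribonucleotide reductase, was at 7.11 ± 0.868 (adjusted p = 0.000314) and TYMS, for thymidylate synthase, at 6.70 ± 0.669 (adjusted p = 0.000138). This RRM2 row had 1492 counts over GFP-HRAS DMSO against 7 over RFP DMSO, TYMS 2953 against 19, GINS2 468 against 13 and E2F1 334 against 11. E2F8 had 928 against 25, E2F7 542 against 25, e2f2 243 against 30, TK1 1579 against 28, CDC45 433 against 25 and ORC1 113 against 24. None of these genes had enough counts in all 3 RFP DMSO libraries to pass the filter on low counts there. They passed it with libraries of other groups. Their calls, and the list counts that include them here and below, are no independent support, and their folds rest on few reference counts. MCM7 (0.10, adjusted p = 0.753) and dhfr (0.19, adjusted p = 0.62) were not called.

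Of 7 G1 cyclins and kinases, 5 rose and none fell (median 1.33), beside 24.9% of all genes higher and 22.6% lower. The largest rises were in CCNE2 (4.67 ± 0.743, adjusted p = 0.000806) and a CCND2 row (3.17 ± 0.642, adjusted p = 0.00262). CCNE2, with 488 counts over GFP-HRAS DMSO against 13 over RFP DMSO, is also on the list of E2F targets, so the lists overlap. It passed the filter on low counts through libraries of other groups, where it is higher, so its call is no independent support. CDK6, a target of p18, was at 1.33 ± 0.341 (adjusted p = 0.00846), and CDK4 at -0.24 ± 0.224 (adjusted p = 0.39). CCND1, the cyclin D best known as a target of growth signals, was at -0.02 ± 0.181 (adjusted p = 0.922).

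The rise of inhibitor and cycle genes stood side by side in the same libraries. mki67, a marker of cycling cells, averaged 31.5 ± 3 CPM in 7 dpci, 19.9 ± 9.43 in GFP-HRAS rapamycin, 58.9 ± 14.6 in GFP-HRAS DMSO, 2.03 ± 1.12 in RFP rapamycin and 2.03 ± 0.232 in RFP DMSO (SD, n = 3 each). The counts of cdkn1a per count of mki67 were 0.652, 0.456 and 0.427 in GFP-HRAS DMSO and 2.78, 2.85 and 2.22 in RFP DMSO, so relative to mki67 cdkn1a was lower in GFP-HRAS DMSO than in RFP DMSO, the opposite of its own level. The ratios were 0.589, 0.477 and 0.629 in 7 dpci, and under rapamycin they overlapped between the lines, with 1.02, 0.747 and 3.13 in GFP-HRAS and 1.98, 10.8 and 5.91 in RFP. All 7 tested proliferation markers rose in GFP-HRAS DMSO, beside 24.9% of all genes. CDK1 had 48 counts against 2 over RFP DMSO, a ratio of 16.2 (4.24 to 137.4), and CCNA2 had 1407 against 7. CCNB1 had 1405 against 25, AURKB 833 against 27 and bub1 1445 against 22. All of these passed the filter on low counts with libraries of other groups, since their counts were too few in RFP DMSO. Their calls, and the count of 7 that includes them, are no independent support. Whether cdkn1a and mki67 came from the same cells cannot be read from bulk libraries.

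**Figure D4:**
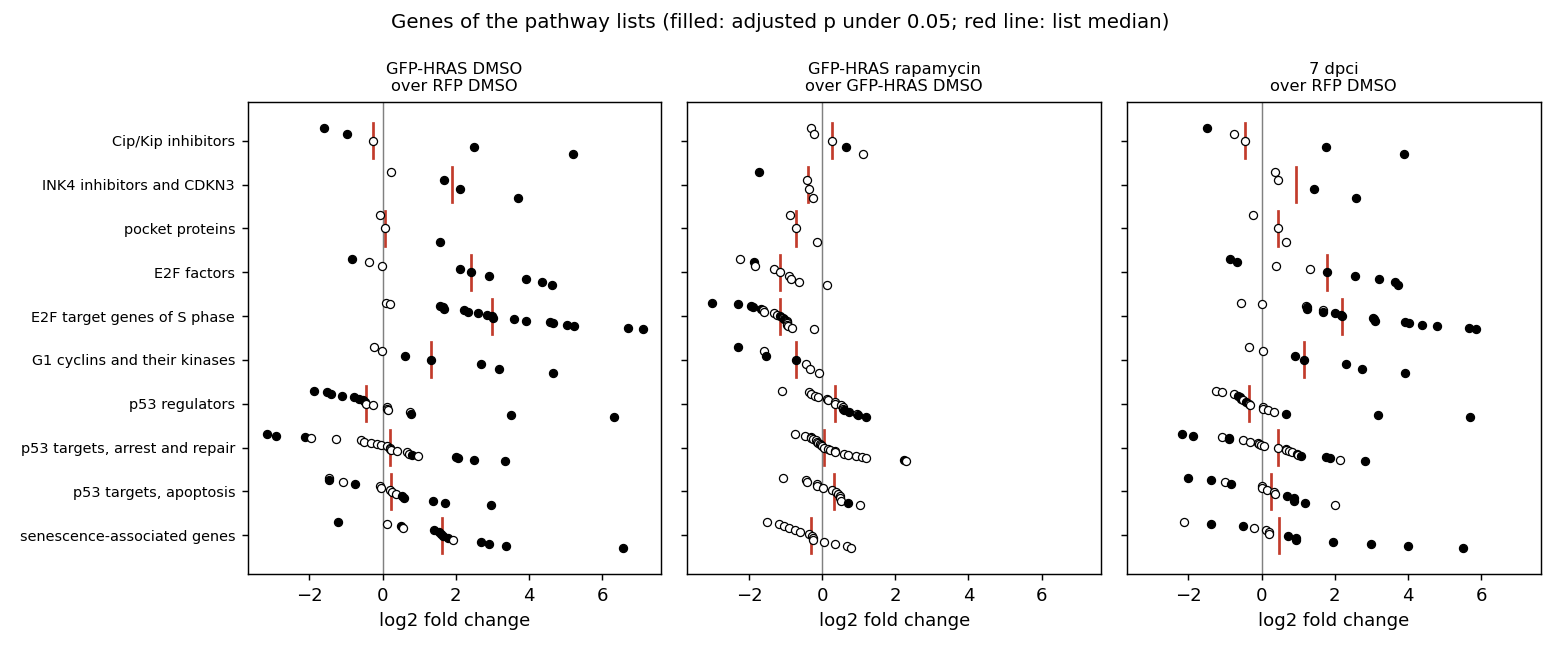
Log2 fold changes (horizontal axis) of the tested genes of 10 lists in 3 comparisons, one point per gene, filled where the adjusted p was under 0.05, with a red line at the list median. E2F targets lie to the right in GFP-HRAS DMSO over RFP DMSO and in 7 dpci over RFP DMSO, and the p53 lists spread to both sides; the fitted values of genes with 1 to 3 counts in RFP DMSO (cdkn1cb, cdkn2a/b, CHEK1, chek2) depend on the prior count.

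Genes linked with senescence, a lasting arrest in which p21 and p16 take part, mostly rose: 10 of 14 were higher and 1 lower (median 1.61), beside 24.9% of all genes higher and 22.6% lower. plaua, a urokinase, was at 6.56 ± 0.795 (adjusted p = 0.000313) and the chemokine cxcl8a at 3.37 ± 0.561 (adjusted p = 0.000982), while IGFBP3 was at -1.21 ± 0.301 (adjusted p = 0.00717). plaua had 1797 counts over GFP-HRAS DMSO against 13 over RFP DMSO, cxcl8a 167 against 11 and il6 57 against 6. All of them passed the filter on low counts through libraries of other groups, where they are higher. Their calls are no independent support, and their folds rest on few reference counts. LMNB1, whose loss marks senescent cells in mammals, was among the 10 that were higher (1.64 ± 0.295, adjusted p = 0.00143). The count of 10 is therefore no measure of senescence. HMGB2 was also among the 10, but its call was lost with no filter on low counts (0.0921) and without RFP DMSO replicate 2 (0.171), among other settings. Dropping any 1 GFP-HRAS DMSO library ended the MMP9 call (0.0513 to 0.0761). il6 lost its call without GFP-HRAS DMSO replicate 1 (0.0955) or RFP DMSO replicate 2 (0.0743) or 3 (0.0745). Several of these genes are secreted factors that leukocytes and fibroblasts also make, and the fibroblast and matrix markers summed to 1690 to 3140 CPM in GFP-HRAS DMSO and 577 to 1220 in RFP DMSO. An FN1 row was the largest part of these sums, with 78989 counts over GFP-HRAS DMSO against 40274 over RFP DMSO. COL1A2 had 45490 against 2166, while PDGFRA had 693 against 2600 and TCF21 93 against 94. The part of leukocytes and fibroblasts was not tested.

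With rapamycin in both lines, 1 of the 8 rows, cdkn1a, was called between GFP-HRAS and RFP, while 18.1% of all genes were called (10.4% higher, 7.71% lower), and libraries did not overlap for 2 rows, against 32.6% of all genes. The second was CDKN1B row ENSDARG00000029018, at -0.52 ± 0.188 (adjusted p = 0.0749), and -0.54 (adjusted p = 0.0854) without GFP-HRAS rapamycin replicate 3. Without GFP-HRAS rapamycin replicate 3 the called rows were cdkn1a, mdm2 and RB1, and 4864 genes were called in place of 2909. Leaving out GFP-HRAS rapamycin replicate 1 or 2 instead left cdkn1a as the only called row. E2F targets had 12 of 19 genes higher and 1 lower, MCM7 (-1.20 ± 0.245, adjusted p = 0.0103). These counts depend on the libraries used: with only the 2 groups, or without GFP-HRAS rapamycin replicate 1 or 2 or RFP rapamycin replicate 2, 7 were higher and 1 lower. CHEK1 had 131 counts in GFP-HRAS rapamycin against 1 in RFP rapamycin, a ratio of 120.7 (21.3 to 4803). Of the p53 targets of arrest, 4 of 23 were higher and none lower: cdkn1a, PHLDA3 (2.74 ± 0.496, adjusted p = 0.00666), rps27l (1.43 ± 0.288, adjusted p = 0.00982) and PLK3 (1.26 ± 0.362, adjusted p = 0.0355), the last lost without GFP-HRAS rapamycin replicate 1 (0.0802) or 2 (0.145) and without RFP rapamycin replicate 2 (0.118) or 3 (0.0921). With only the 2 groups in the fit, neither rps27l (0.0535) nor PLK3 (0.0924) was called. Without GFP-HRAS rapamycin replicate 3, this list had 4 higher and 4 lower.

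Within the GFP-HRAS line, rapamycin against DMSO called 2 of the 8 rows, CDKN2C lower and CDKN1B row ENSDARG00000029018 higher, where 12.1% of all genes were called by the same test (5.83% higher, 6.3% lower). Libraries did not overlap for 5 rows, against 34.7% of all genes. CDKN1B row ENSDARG00000029018 rose by 0.65 ± 0.188 in log2 (adjusted p = 0.0453), and the call was lost in 9 of 13 alternatives, among them library totals (0.21, adjusted p = 0.458), the 2-group fit (0.0863) and each of 5 single libraries left out, GFP-HRAS rapamycin replicates 1 (0.0672), 2 (0.0887) and 3 (0.64, adjusted p = 0.101) and GFP-HRAS DMSO replicates 2 (0.156) and 3 (0.135). The other CDKN1B row (1.12 ± 0.427, adjusted p = 0.105), CCNG1 (0.72 ± 0.266, adjusted p = 0.0987) and RB1 (-0.88 ± 0.334, adjusted p = 0.104) were separated between the groups without a call. Without GFP-HRAS rapamycin replicate 3 they stood at 0.92 (adjusted p = 0.26), 0.67 (0.205) and -0.57 (0.246), in the same order.

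E2F targets went down under rapamycin in the GFP-HRAS line: 7 of 19 fell and none rose (median -1.14), beside 6.3% of all genes that fell. The largest fall was in an RRM2 row (-3.00 ± 0.592, adjusted p = 0.0129), and PCNA was at -1.04 ± 0.245 (adjusted p = 0.0226). Of the G1 genes, CCNE2 (-2.31 ± 0.629, adjusted p = 0.0372), CDK6 (-1.52 ± 0.343, adjusted p = 0.0197) and CCND1 (-0.70 ± 0.182, adjusted p = 0.0313) fell. Without GFP-HRAS rapamycin replicate 3, 3 E2F targets and no G1 gene were called, and without GFP-HRAS DMSO replicate 2, 1 E2F target and no G1 gene. Without GFP-HRAS rapamycin replicate 2 there was 1 E2F target, without GFP-HRAS DMSO replicate 3 there were 2, and with library totals 14 of the 19 were lower. Of the p53 targets of arrest, the GLS2 row was the 1 called, at 2.23 ± 0.549 (adjusted p = 0.0264), and none was called without GFP-HRAS rapamycin replicate 3. Summed macrophage and leukocyte markers were 170 to 490 CPM with rapamycin and 3450 to 5010 with DMSO in this line, and 6 of 8 fell; their part in these differences was not tested.

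Within the RFP line rapamycin called 0 of the 8 rows and 0% of all genes with edgeR. At an unadjusted p under 0.05 there were 787 of 16044 genes, and DESeq2 called 27. cdkn1a was the 1 row whose libraries did not overlap, and 11.1% of all genes were so separated. The difference between the rapamycin effects of the lines was called for 0 of the 8 rows and 0.0499% of all genes (0.00623% higher, 0.0436% lower, 8 genes in all, with 2303 at an unadjusted p under 0.05). DESeq2 called 510 genes, with cdkn1a as the 1 row among them.

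In 7 dpci ventricles the pattern of calls against RFP DMSO had cdkn1a and CDKN2C higher and CDKN1B row ENSDARG00000054271 lower, so 3 of 8 rows were called, beside 36.4% of all genes (18.8% higher, 17.7% lower). Libraries did not overlap for 5 rows, against 57.8% of all genes; the other 2 were CDKN1B row ENSDARG00000029018 (-0.44 ± 0.169, adjusted p = 0.0581) and RB1 (0.67 ± 0.309, adjusted p = 0.104). RFP DMSO is also the reference of the GFP-HRAS DMSO comparison, so the calls of both share those 3 libraries, and the values are given side by side only. The log2 fold changes were 1.75 in 7 dpci and 2.51 in GFP-HRAS DMSO for cdkn1a, 1.43 and 2.11 for CDKN2C, 0.67 and 1.58 for RB1, and -1.48 and -1.61 for CDKN1B row ENSDARG00000054271. Fibroblast and matrix markers summed to 7700 to 8720 CPM in 7 dpci against 577 to 1220 in RFP DMSO (9 of 10 higher, 1 lower), and erythrocyte markers to 299 to 601 against 56.3 to 106 (3 of 3 tested higher); their part in these changes was not tested.

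The surrounding lists in 7 dpci against RFP DMSO had 15 of 19 E2F targets higher and none lower (median 2.21) and 5 of 9 E2F factors higher and 2 lower. Of all genes, 18.8% were higher and 17.7% lower. Of the p53 targets of arrest, 5 rose and 4 fell, shares near those of all genes. PHLDA3 (2.82 ± 0.464, adjusted p = 0.00081), PLK3 (1.86 ± 0.378, adjusted p = 0.00262) and rps27l (0.96 ± 0.263, adjusted p = 0.013) rose beside cdkn1a, with CCNG2 (1.08 ± 0.346, adjusted p = 0.0275), a relative of CCNG1. Dropping RFP DMSO replicate 2 ended the rps27l call (0.0625), and dropping 7 dpci replicate 2 (0.0666) or 3 (0.0925) or RFP DMSO replicate 1 (0.0925) or 3 (0.0878) ended that of CCNG2. foxo3b fell by -2.18 ± 0.482 (adjusted p = 0.00418), and SESN1, sesn2 and tigara were the other 3 that fell. sesn2 was at -0.90 ± 0.262 in 7 dpci (adjusted p = 0.0173) and 0.81 in GFP-HRAS DMSO, opposite in sign, and dropping 7 dpci replicate 2 (0.0638) or 3 (0.0655) or RFP DMSO replicate 2 (0.0672) ended the sesn2 call. SESN1 and tigara each lost the call without any 1 of the 7 dpci libraries (adjusted p 0.0661 to 0.0955). Without RFP DMSO replicate 2 tigara was at -0.55 (0.177) and SESN1 at -1.79 (0.0706), without RFP DMSO replicate 3 SESN1 was at -1.58 (0.0926), and tigara was not called with library totals (0.0746) or no filter (0.0555). Without 7 dpci replicate 2 or 3 or RFP DMSO replicate 2 the list had 4 higher and 1 lower, and without 7 dpci replicate 1 it had 5 and 2. Among apoptosis targets, BAX was lower in 7 dpci (-0.84 ± 0.23, adjusted p = 0.0126) and at 0.37 ± 0.247 in GFP-HRAS DMSO (adjusted p = 0.238). Without RFP DMSO replicate 2 the 7 dpci value of BAX was not called (0.0649). Its relative baxb went the other way and was called higher in 7 dpci. The baxb call was lost with no filter (0.87, adjusted p = 0.0516) and without RFP DMSO replicate 2 (0.67, adjusted p = 0.129), among other settings.

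Set directly against GFP-HRAS DMSO, 7 dpci had 1 row higher (CDKN1B row ENSDARG00000029018, 0.53 ± 0.17, adjusted p = 0.0334) and 2 lower (cdkn1a, given above, and RB1, -0.91 ± 0.307, adjusted p = 0.041), beside 28.8% of all genes called (13.3% higher, 15.5% lower). Libraries did not overlap for 4 rows, against 53.3% of all genes. Leaving out any 1 of 7 dpci replicates 1, 2 or 3 or GFP-HRAS DMSO replicates 2 or 3 ended the calls of both CDKN1B row ENSDARG00000029018 (adjusted p 0.0723 to 0.11) and RB1 (0.0779 to 0.127). Library totals also ended the CDKN1B call, at 0.19 (adjusted p = 0.42), and no filter on low counts that of RB1 (0.061). Against GFP-HRAS rapamycin no row was called, beside 18.5% of all genes (8.36% higher, 10.2% lower), and 2 rows, both CDKN1B, had libraries that did not overlap, beside 40% of all genes. mdm2 was then at -1.28 ± 0.445 (adjusted p = 0.0613), and at -1.67 (adjusted p = 0.00688) without GFP-HRAS rapamycin replicate 3. With GFP-HRAS rapamycin replicate 1 left out it was at -0.62 (adjusted p = 0.322).

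Genes with profiles most like 3 of the members were ranked by Pearson's r of log2 CPM over the 15 libraries, among 9370 genes with a symbol and a mean of at least 5 CPM. The libraries share the group structure, so r is a description with no test. The gene most like cdkn1a was zgc:86896 (r = 0.953), followed by ITGB1BP1 (0.945), si:ch211-156j16.1 (0.944), LUZP1 (0.934) and zgc:194627 (0.929). None of them is on the p53 lists, but those lists hold few of the 9370 genes, so this absence carries no weight. Those most like mdm2 were TMEM47 (0.938), cyp46a1.4 (0.908), DDAH1 (0.9), ARL6IP5 (0.891) and RYK (0.887). CCNG1 had looser company, with ADGRL4 at 0.844, MPC2 at 0.811, cmc1 at 0.801, the mitochondrial gene MT-CO1 at 0.79 and zgc:153981 at 0.787. TMEM47 averaged 58.2 CPM in 7 dpci, 108 in GFP-HRAS rapamycin, 66.8 in GFP-HRAS DMSO, 53.3 in RFP rapamycin and 49.8 in RFP DMSO.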

How the data were processed

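Per the labels' protocols, a CORALL mRNA kit made the libraries from QIAzol-extracted, DNase-treated RNA. The submitters' processing notes name featureCounts 1.6.0, UMI-tools 1.1.1 and HISAT2 2.1.0, and genome build GRCz11. Neither annotation release nor strand setting is given in the sources used here, so overlapping genes and near-identical paralogues may share reads. The authors deposited whole-number counts per gene in 2 tables, without normalization; UR in a column name was taken to mean UAS:RFP. A table paired 29201 of 32520 identifiers with a symbol.

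Counts were tested with edgeR 4.0.16 in R 4.3.3 (TMM, filterByExpr by group, glmQLFit, glmQLFTest), with Benjamini-Hochberg adjustment over all genes and calls at an adjusted p under 0.05. The 12 transgenic libraries formed 1 fit (16044 genes). The 7 dpci comparisons used all 15 libraries (16421 genes). Each SE was derived from the fold change and its F statistic. Where a group had 1 to 3 counts, the scaled ratio with an exact 95% interval is given, which covers counting error only. No 2 libraries of a group agreed within sampling noise. The script was tested on simulated data.

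The members, gene lists and comparisons were chosen with earlier results of these data known. Named genes were all rows of the members, the Cip/Kip, INK4 and pocket protein lists, and in other lists up to 2 genes called in each direction with the largest change in GFP-HRAS DMSO against RFP DMSO; further genes were named after their values were seen. Alternatives were DESeq2 size factors, library totals, no filter on low counts, the DESeq2 1.42.0 test, only the 2 groups compared, all 15 libraries, a replicate block, and each library left out in turn. Uninjured samples were not analysed here, and the level of 1 related gene is not reported here. Sequences, gene positions and transcript lengths were not used here.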

Additional observations from a re-analysis of the deposited data

How the results depend on the processing

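Of the single-gene results for the 8 rows, 388 kept their direction and side of the threshold under the settings that keep every library, 15 gained a call, 8 lost one and 5 changed sign; with 1 library left out, these numbers were 382, 6, 27 and 17. The sign changes were all of uncalled values. With library totals they were cdkn1ca in GFP-HRAS DMSO against RFP DMSO (0.22), CCNG1 in 7 dpci against RFP DMSO (0.02), CDKN1B row ENSDARG00000054271 in 7 dpci against GFP-HRAS DMSO (-0.21) and RB1 in 7 dpci against GFP-HRAS rapamycin (0.05), the last also with the replicate block (0.02). With 1 library left out, values that changed sign had these ranges: RB1 -0.33 to 0.18 and cdkn1ca -0.73 to 0.01 in 7 dpci against GFP-HRAS rapamycin, mdm2 -0.06 to 0.13 and CCNG1 -0.3 to 0.05 in 7 dpci against RFP DMSO, and CDKN1B row ENSDARG00000054271 -0.02 to 0.36 in 7 dpci against GFP-HRAS DMSO. In GFP-HRAS against RFP under rapamycin, CDKN1B row ENSDARG00000054271 ranged from -0.99 to 0.04 and CCNG1 from -0.08 to 0.43. For rapamycin in RFP they ranged from -0.52 to 0.5 and from -0.32 to 0.19, with mdm2 from -0.31 to 0.07, and for rapamycin in GFP-HRAS mdm2 ranged from -0.06 to 0.99.

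For rapamycin in GFP-HRAS, 1947 genes were called in all, 3464 with library totals (254 higher, 3210 lower), 3126 with DESeq2, 766 with only the 2 groups and 1271 with the replicate block, and 1 of the 8 rows instead of 2 was called with no filter, with the 2 groups and with the block. For the difference between the rapamycin effects, 8 genes became 125 with library totals, 26 with no filter, 510 with DESeq2 (1 row), 140 with all 15 libraries and 44 with the block. For GFP-HRAS against RFP under rapamycin, 2909 genes became 838 with the 2 groups, and 1 row became 4 with DESeq2 and 4 with all 15 libraries. Rapamycin in RFP gave 27 genes with DESeq2 and 1 with all 15 libraries. With the 2 groups, 5 rows instead of 3 were called in 7 dpci against RFP DMSO, and 1 row instead of 0 in 7 dpci against GFP-HRAS rapamycin, as with DESeq2 (1). The cause of these changes was not tested.

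Leaving out 1 library at a time gave 5793 to 7312 genes and 5 to 6 rows for GFP-HRAS DMSO against RFP DMSO, 881 to 4864 and 1 to 3 under rapamycin, 533 to 2305 and 0 to 2 for rapamycin in GFP-HRAS, 0 to 2 and 0 to 0 for rapamycin in RFP, 0 to 81 and 0 to 0 for the difference, 3995 to 5843 and 2 to 3 for 7 dpci against RFP DMSO, 2949 to 4296 and 0 to 3 against GFP-HRAS DMSO, and 1405 to 3471 and 0 to 1 against GFP-HRAS rapamycin.

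No source used here states that the replicate numbers pair the libraries. Of 30 same-number pairs, 2 had deviations correlated above 0.1 (median -0.0323). With 3 libraries per group such deviations are not independent, so these values cannot settle a pairing. The block is therefore not read as a paired analysis. Library totals moved the median log2 fold change of all genes to 0.484 in GFP-HRAS DMSO against RFP DMSO, -0.436 for rapamycin in GFP-HRAS and 0.144 in 7 dpci against RFP DMSO. At these depths cdkn1cb, cdkn2a/b and CDKN2D rest on few counts.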
